A study of Homo sapiens with 8 samples.

Results

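The C/EBP family (CCAAT/enhancer-binding proteins) was followed in 8 RNA sequencing libraries of prostate cancer cells. Its members were taken from the deposited gene table by symbol, as the rows named CEBPA, CEBPB, CEBPD, CEBPE and CEBPG. These are 5 of the 57905 genes listed, and 4 of them reached the level needed for a test. The libraries come from DU145 and PC3, established lines from prostate cancer that had spread, DU145 to the brain and PC3 to bone. Each line had received a lentivirus that carries TRIB1 or, as the control, an empty lentivirus, which gives 2 groups per line, control and TRIB1, with 2 libraries in each of the 4. All 4 groups had therefore been exposed to a virus, and the labels give no untreated cells, no promoter of the TRIB1 construct, no time after infection and no statement on clones. They do not say whether the replicates were separate cultures, so a p-value reflects only how much these libraries vary, and that variation may be technical.

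C/EBP proteins bind DNA as pairs through a basic region and a leucine zipper. CEBPA drives the maturation of granulocytes, fat cells and hepatocytes and slows cell division. CEBPB and CEBPD are induced in inflammation and switch on cytokine and acute phase genes, CEBPE acts late in granulocyte maturation, and CEBPG, which has no activation domain of its own, pairs with the others and with stress factors such as ATF4. TRIB1 is a pseudokinase that holds C/EBP proteins, CEBPA above all, against the ubiquitin ligase COP1, which marks them for degradation. That control acts on the protein, and the values below are transcripts only. They are in TPM, a transcript level scaled for gene length and to the same total in every library. Levels of different genes can therefore be compared, but read totals, and with them the depth, are unknown. In bulk RNA, fewer cells that express a gene and less RNA per cell cannot be told apart.

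The DNA letters before the start sites are shown for the members and targets to which the results return. Each stretch is the 250 bases before a RefSeq start on GRCh38.p14, 5′ to 3′ on the strand of the gene. Capitals mark, in CEBPB, TGACG, a part of the element read by cAMP-responsive factors. In CEBPG they mark TGATGCAA, a match to TGATGNAA, the composite element that a C/EBP and an ATF protein can share. In IL6 and LCN2, inflammatory target genes, they mark matches to TTGCNNAA, the core of the C/EBP palindrome. The regions are chr20:50190580-50190829 for the second listed start of CEBPB, chr19:33373863-33374112 for the second listed start of CEBPG, chr7:22726950-22727199 for IL6 and chr9:128149203-128149452 for LCN2, all on the plus strand.

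CEBPB: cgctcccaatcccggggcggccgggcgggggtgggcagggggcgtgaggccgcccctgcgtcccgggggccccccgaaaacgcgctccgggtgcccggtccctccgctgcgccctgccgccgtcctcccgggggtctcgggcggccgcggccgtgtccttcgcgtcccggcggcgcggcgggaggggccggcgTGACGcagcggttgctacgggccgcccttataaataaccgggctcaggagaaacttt

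CEBPG: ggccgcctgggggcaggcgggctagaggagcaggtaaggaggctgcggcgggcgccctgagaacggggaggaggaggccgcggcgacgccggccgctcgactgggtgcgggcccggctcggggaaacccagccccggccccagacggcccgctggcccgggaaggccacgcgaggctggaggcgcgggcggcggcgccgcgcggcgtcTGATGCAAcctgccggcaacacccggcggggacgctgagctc

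IL6: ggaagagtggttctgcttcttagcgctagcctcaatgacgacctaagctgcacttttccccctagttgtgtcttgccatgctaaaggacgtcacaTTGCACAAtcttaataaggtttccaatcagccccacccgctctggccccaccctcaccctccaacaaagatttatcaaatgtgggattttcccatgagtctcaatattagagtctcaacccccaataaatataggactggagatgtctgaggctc

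LCN2: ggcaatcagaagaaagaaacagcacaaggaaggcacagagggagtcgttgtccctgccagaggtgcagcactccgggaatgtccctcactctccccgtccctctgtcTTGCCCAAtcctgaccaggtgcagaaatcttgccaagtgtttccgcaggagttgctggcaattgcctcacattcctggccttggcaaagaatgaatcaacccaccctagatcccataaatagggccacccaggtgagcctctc

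Searched on both strands over the 250 bases before 35116 RefSeq starts, TGACG was found in 21.2% of them, TTGCNNAA in 9.05%, TGATGNAA in 3.14% and TGACGTCA, the full cAMP response element, in 1.65%. Both listed starts of CEBPB, the first listed start of CEBPG and the single listed starts of CEBPA and CEBPE held neither TTGCNNAA nor TGATGNAA. CEBPD was not among the members examined in this way. A match describes the letters and is not a bound site.

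The virus raised its cargo in both lines, which checks the labels. TRIB1 was at 10.1 and 7.94 TPM in the DU145 controls and at 69.4 and 62.3 TPM in the DU145 TRIB1 libraries (log2 change 2.75, limma adjusted p = 0.00180). It was at 45.1 and 50.8 TPM in the PC3 controls and at 241 and 245.0 TPM in the PC3 TRIB1 libraries (log2 change 2.32, adjusted p = 0.000950). Each library held 19731 to 21335 genes at 1 TPM or more. Epithelial identity was visible in all 8 libraries, with 4 of 4 markers (KRT8, KRT18, EPCAM and CDH1) above 9 TPM. The luminal prostate marker KLK3 was listed at 0 in 7 libraries. PTPRC, the pan-leukocyte marker, stayed at 0.151 to 0.467 TPM. STAT3, an inducer of CEBPD, was at 96.9 to 143 TPM in DU145 and at 0.127 to 0.502 TPM in PC3.

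CEBPB was the most abundant member in every library. This inflammatory regulator is listed on chromosome 20, from 48807376 to 48809212, as a gene of the plus strand (the build of the listed intervals is not stated). It was at 220.4 and 180.4 TPM in the DU145 controls, at 97.2 and 73.1 TPM in the DU145 TRIB1 libraries, at 90.0 and 131 TPM in the PC3 controls and at 135 and 138 TPM in the PC3 TRIB1 libraries. The DU145 controls stood above every other library, and both DU145 TRIB1 libraries stood below both DU145 controls. In PC3 the order was turned, with both TRIB1 libraries just above the second control. A level of 200.4 TPM (SD 28.3, n = 2) outranked 97.4% of the genes tested in the DU145 controls. The remaining levels were 85.2 TPM (SD 17.1, n = 2) with TRIB1 in DU145, 110.3 TPM (SD 28.8, n = 2) in the PC3 controls and 136.8 TPM (SD 2.11, n = 2) with TRIB1 in PC3.

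CEBPD, an early responder to cytokines, is listed on chromosome 8, from 48649471 to 48651648, on the minus strand. It was at 66.3 and 51.8 TPM in the DU145 controls, at 39.7 and 30.7 TPM in the DU145 TRIB1 libraries, at 11.0 and 15.4 TPM in the PC3 controls and at 7.74 and 7.72 TPM in the PC3 TRIB1 libraries. All 4 DU145 libraries stood above all 4 PC3 libraries, and within each line both TRIB1 libraries stood below both controls. The means were 59.0 TPM (SD 10.2, n = 2), 35.2 TPM (SD 6.33, n = 2), 13.2 TPM (SD 3.14, n = 2) and 7.73 TPM (SD 0.0127, n = 2) in the same order.

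CEBPA, the factor best known as a substrate of TRIB1 and COP1, was a low transcript. It is listed on chromosome 19, from 33790840 to 33793470, on the minus strand. Its level was 5.55 and 5.11 TPM in the DU145 controls, 4.28 and 3.06 TPM in the DU145 TRIB1 libraries, 1.68 and 2.46 TPM in the PC3 controls and 0.795 and 1.03 TPM in the PC3 TRIB1 libraries. As with CEBPD, the order ran DU145 above PC3 and, within each line, control above TRIB1, with no library out of place. The means were 5.33 TPM (SD 0.309, n = 2), 3.67 TPM (SD 0.857, n = 2), 2.07 TPM (SD 0.554, n = 2) and 0.911 TPM (SD 0.164, n = 2). At these levels CEBPA outranked 48.8% of the genes tested in the DU145 controls and 21.4% in the PC3 TRIB1 libraries.

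CEBPG is listed on the same chromosome, from 33864236 to 33873592 on the plus strand, 70766 bases past the higher listed coordinate of CEBPA. It was the member that varied least. Its level was 17.9 and 17.8 TPM in the DU145 controls, 21.1 and 19.7 TPM in the DU145 TRIB1 libraries, 13.2 and 12.0 TPM in the PC3 controls and 15.7 and 14.7 TPM in the PC3 TRIB1 libraries. Within each line both TRIB1 libraries stood above both controls, and replicates lay close together. The means were 17.9 TPM (SD 0.0637, n = 2), 20.4 TPM (SD 0.980, n = 2), 12.6 TPM (SD 0.832, n = 2) and 15.2 TPM (SD 0.724, n = 2).

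CEBPE, the granulocyte member, is listed on chromosome 14, from 23586513 to 23588825, on the minus strand. It was listed at 0 in 6 libraries, at 0.0514 TPM in the first DU145 TRIB1 library and at 0.0417 TPM in the second PC3 TRIB1 library. It did not reach the 1 TPM mean needed for a test.

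**Figure D1:**
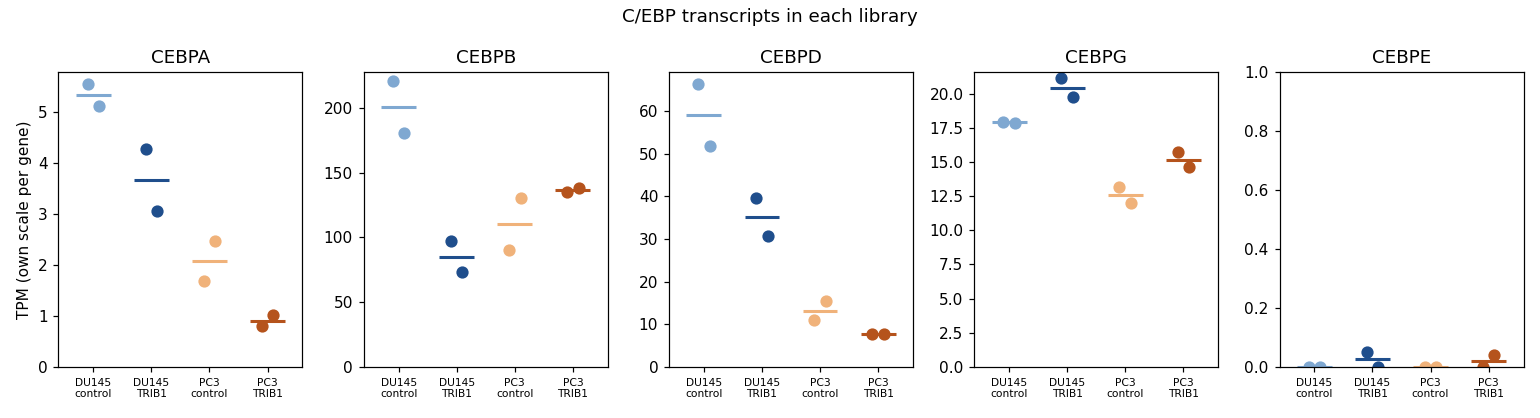
TPM of CEBPA, CEBPB, CEBPD, CEBPG and CEBPE in each of the 8 libraries (points) with the mean of the 2 libraries of a group (bars), each gene on its own linear scale from 0. The DU145 controls are highest for CEBPB, CEBPD and CEBPA, the DU145 TRIB1 libraries are highest for CEBPG, and CEBPE lies at or near 0 throughout.

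Added up, the 5 members came to 310 and 255 TPM in the DU145 controls, 162 and 127 TPM in the DU145 TRIB1 libraries, 116 and 161 TPM in the PC3 controls and 159.5 and 162 TPM in the PC3 TRIB1 libraries. The DU145 controls thus held the highest totals, 283 TPM on average (SD 38.9, n = 2), and the other 3 groups overlapped, with means of 144 TPM (SD 25.3, n = 2), 138 TPM (SD 31.6, n = 2) and 161 TPM (SD 1.56, n = 2). CEBPB made up most of the total everywhere, but its share differed: 71.1% and 70.7% in the DU145 controls, 59.9% and 57.7% with TRIB1, 77.7% and 81.4% in the PC3 controls, and 84.8% and 85.5% with TRIB1. CEBPD supplied 20.3% to 24.4% of the total in the DU145 libraries and 4.77% to 9.60% in the PC3 libraries. The share of CEBPG in DU145 was 5.78% and 6.99% in the controls and 13.0% and 15.6% with TRIB1. No test was run on totals or shares.

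Ratios between members within a library show the same contrast. There were 12.3 and 10.1 CEBPB transcripts per CEBPG transcript in the DU145 controls and 4.60 and 3.70 in the DU145 TRIB1 libraries. In PC3 the ratio was 6.82 and 10.9 in the controls and 8.63 and 9.43 with TRIB1, so the groups overlapped. CEBPB to CEBPD gave 3.32 and 3.48 against 2.45 and 2.38 in DU145, and 8.20 and 8.48 against 17.5 and 17.9 in PC3. In this ratio the PC3 control libraries, which differed by a factor of 1.45 in CEBPB itself, lay close together.

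**Figure D2:**
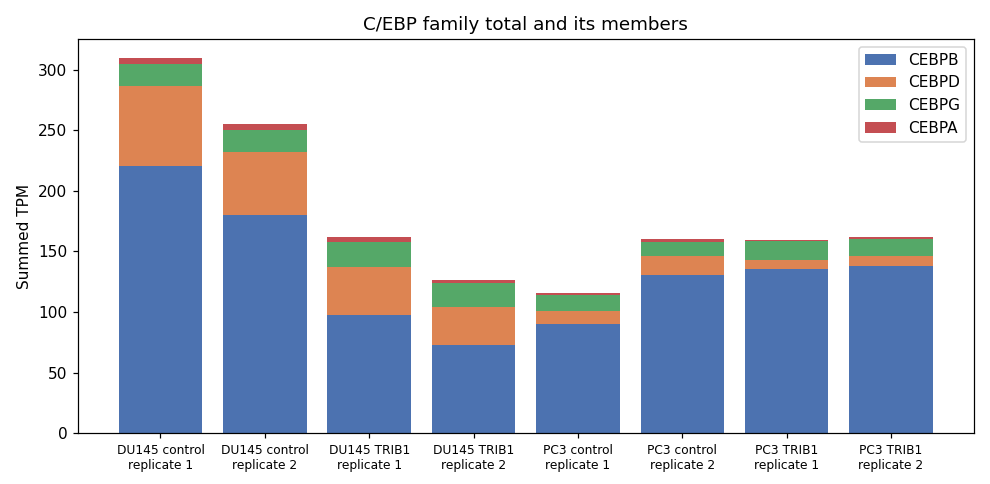
Summed TPM of CEBPB, CEBPD, CEBPG and CEBPA in each of the 8 libraries, stacked from 0 (CEBPE adds at most 0.0514 TPM and is not drawn). The first DU145 control reaches 310 TPM and the second 255 TPM, while the other 6 libraries lie between 116 and 162 TPM.

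The control libraries of the lines differed in each of the 4 members tested. All 4 were lower in PC3 at an adjusted p below 0.05, a share to be read against the 28.4% of all genes tested that were lower in PC3 by that rule. CEBPD was 4.48-fold higher in DU145 on the TPM scale, with a log2 difference, PC3 minus DU145, of -2.09 (adjusted p = 0.000497). CEBPA was 2.57-fold higher in DU145, with a log2 difference of -1.05 (SE 0.21, adjusted p = 0.00844). CEBPB was 1.82-fold higher, with a log2 difference of -0.87 (adjusted p = 0.0191), and CEBPG 1.42-fold higher, with a log2 difference of -0.47 (adjusted p = 0.00608). In none of the 4 genes did the control libraries of the lines overlap, which also held, in this direction, for 42.4% of all genes tested. The median log2 difference of all genes was -0.18 in the same contrast and -0.04 after median-of-ratios scaling, under which the 4 differences were -1.93 for CEBPD, -0.92 for CEBPA, -0.71 for CEBPB and -0.32 for CEBPG. Without the first DU145 control library, 2 of the 4 differences were lost, CEBPA at an adjusted p of 0.0520 and CEBPB at 0.120.

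With TRIB1 in DU145, CEBPB came to 42.5% of its control level, the largest departure of any member in that line. Its log2 change was -1.23 (SE 0.22, 95% interval -1.77 to -0.70), at an adjusted p of 0.0502, just over the threshold. The change of CEBPB was nonetheless lower than that of all but 2.71% of the genes tested. CEBPD stood at 59.6% of its control level (log2 change -0.73, 95% interval -1.24 to -0.22, adjusted p = 0.149) and CEBPA at 68.9% (log2 change -0.45, 95% interval -0.97 to 0.07, adjusted p = 0.351). CEBPG stood at 114% (log2 change 0.18, 95% interval -0.03 to 0.40, adjusted p = 0.360). By limma, 0 of 4 members passed at an adjusted p below 0.05, against 2.72% of all genes tested, and 2 of 4 had an unadjusted p below 0.05, against 17.7%. The groups did not overlap for any of the 4 members, lower with TRIB1 in 3, as in 29.7% of all genes, and higher in 1, as in 17.6%. Of all genes that passed in DU145, 73.8% were lower with TRIB1, or 56.5% after median-of-ratios scaling. CEBPB passed in DU145 under 5 of 19 alternative settings, and its adjusted p ran from 0.00765 with protein-coding genes alone to 0.227.

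With TRIB1 in PC3, CEBPA and CEBPD again lay below their controls, but CEBPB did not. CEBPA stood at 44.0% of its control level (log2 change -0.68, 95% interval -1.20 to -0.16, adjusted p = 0.0852) and CEBPD at 58.6% (log2 change -0.68, 95% interval -1.19 to -0.17, adjusted p = 0.0781). CEBPB stood at 124% (log2 change 0.33, 95% interval -0.20 to 0.87, adjusted p = 0.372) and CEBPG at 120% (log2 change 0.25, 95% interval 0.03 to 0.46, adjusted p = 0.114). By limma, 0 of 4 members passed, against 17% of all genes tested, and 3 of 4 had an unadjusted p below 0.05, against 30.6%. Both TRIB1 libraries lay outside the range of the controls for all 4 genes, lower in CEBPA and CEBPD, as in 29.8% of all genes, and higher in CEBPB and CEBPG, as in 24.5%. All 4 epithelial markers rose in the same comparison, from a summed 517 and 541 TPM in the controls to 1546 and 1585 TPM, and their part in the values of the members was not tested.

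CEBPB was the only 1 of the 4 members tested whose TRIB1 change differed between the lines past the threshold. Subtracting the log2 change in PC3 from that in DU145 left -1.56 (SE 0.31, 95% interval -2.32 to -0.81, adjusted p = 0.0343). By the same rule, 9.37% of all genes tested differed between the lines, and 5.36% had the lower change in DU145. This difference passed with all libraries and without the second PC3 control, and was lost without any of the other 7 libraries, at adjusted p values of 0.0586 to 0.126 and log2 differences of -1.77 to -1.30. For CEBPD the difference was -0.05, with a 95% interval of -0.77 to 0.67 (adjusted p = 0.937), so a difference between the lines of either sign fits inside the interval. CEBPA gave 0.23 (adjusted p = 0.679) and CEBPG gave -0.07 (adjusted p = 0.776).

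Because CEBPA, CEBPD and CEBPG had changes of 1 sign in both lines, the mean of the changes of both lines was also tested, a contrast chosen after these values were seen. By it CEBPD fell, with a mean log2 change of -0.71 (SE 0.15, 95% interval -1.07 to -0.35, adjusted p = 0.0360), lower in 4 of 4 TRIB1 libraries than in the controls of the same line. In the same contrast 7.05% of all genes tested were lower. CEBPA gave -0.56 (adjusted p = 0.0686) and CEBPG 0.22 (adjusted p = 0.0817). The call for CEBPD was lost in 11 of 18 alternatives, with adjusted p values up to 0.121. Of all genes tested, 10.3% were lower and 4.67% higher in both TRIB1 libraries than in both controls within each line, the patterns of CEBPA and CEBPD and of CEBPG.

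**Figure D3:**
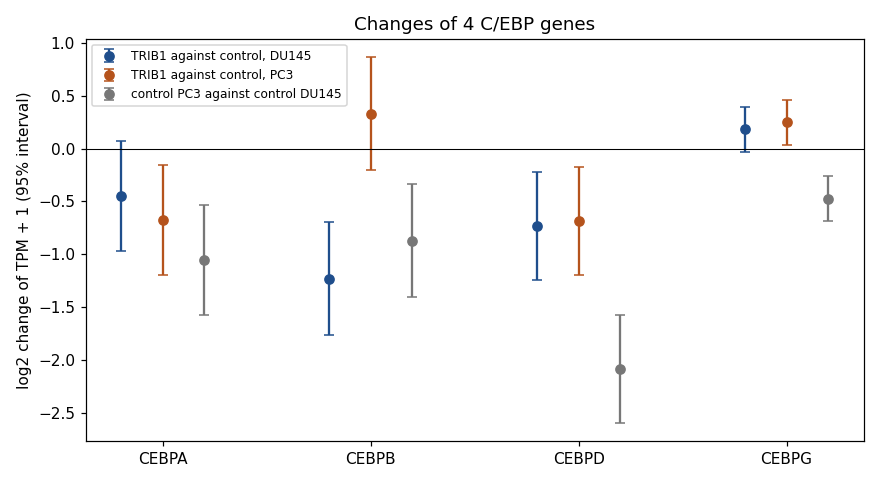
Change of log2(TPM + 1) of CEBPA, CEBPB, CEBPD and CEBPG with its 95% interval from limma, for TRIB1 against control in DU145, TRIB1 against control in PC3, and control PC3 against control DU145. CEBPB lies at -1.23 in DU145 and at 0.33 in PC3, and all 4 genes lie below 0 in the contrast of the controls.

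CEBPA, CEBPB and CEBPD are rich in G and C, at 65.9%, 66.2% and 70.0% of their longest annotated transcript, higher than 97.4%, 97.6% and 99.5% of the genes tested. CEBPG is not, at 43.9%. In these libraries GC content moved with the TRIB1 change in PC3 and with the difference between the PC3 controls. To a smaller extent it also moved with the difference between the DU145 TRIB1 libraries. Among the 509 genes of at least 65% GC and 5 TPM, the median log2 change with TRIB1 was -0.37 in PC3 and -0.07 in DU145, against 0.10 and -0.09 among the 1951 genes under 40%. Between the PC3 controls, the second library exceeded the first by a median log2 of 0.37 in the GC-rich genes, and CEBPA, CEBPB and CEBPD were likewise higher in it, by factors of 1.47, 1.45 and 1.40. Between the DU145 TRIB1 libraries, the median log2 of second minus first was -0.20 in the GC-rich genes and -0.02 under 40%. CEBPA, CEBPB and CEBPD were lower in that second library, by factors of 1.395, 1.33 and 1.29. After a correction for GC content, added after these values were seen, CEBPB gave -1.15 in DU145 (adjusted p = 0.00831) and 0.67 in PC3 (adjusted p = 0.0122), with a difference of -1.82 (adjusted p = 0.00291). The corrected change of CEBPD was -0.63 in DU145 (adjusted p = 0.0298) and -0.31 in PC3 (adjusted p = 0.0935), and that of CEBPA -0.37 (adjusted p = 0.241) and -0.34 (adjusted p = 0.183).

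**Figure D4:**
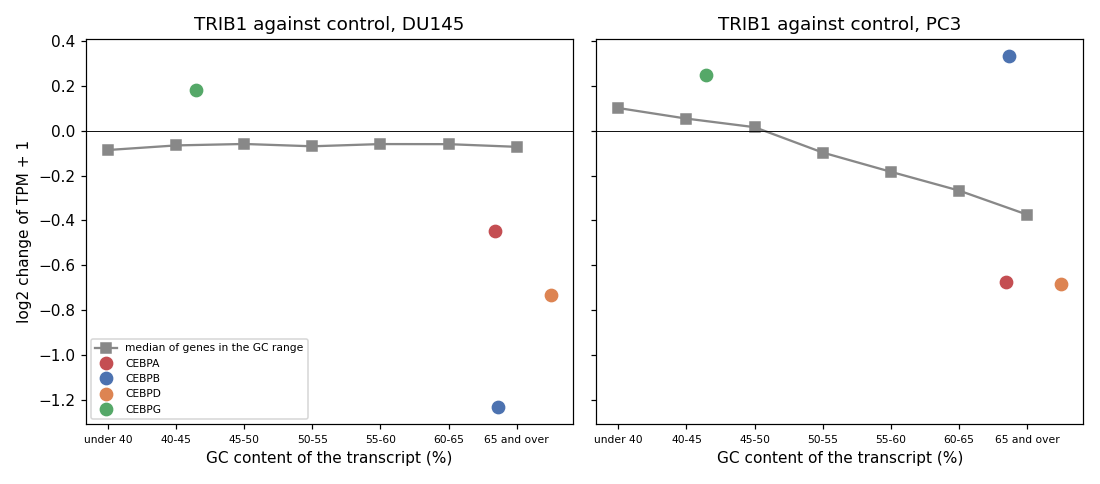
Log2 change of TPM + 1 with TRIB1 against transcript GC content (%), in DU145 (left panel) and PC3 (right panel). Grey squares are medians of genes in 7 GC ranges and coloured points are CEBPA, CEBPB, CEBPD and CEBPG. In PC3 the medians run from 0.10 under 40% GC to -0.37 at 65% and over, and CEBPB at 0.33 lies above them.

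The proteins that hand C/EBPs to the proteasome were listed as 13 genes, all tested. COP1, the ligase partner of TRIB1, was at 28.7 and 30.3 TPM in the DU145 controls and at 26.1 and 25.2 TPM with TRIB1, and at 3.32 and 5.46 TPM in the PC3 controls and at 3.24 and 3.90 TPM with TRIB1. Its level was thus far lower in PC3 (log2 difference of the controls -2.53, adjusted p = 0.000200), and its log2 changes with TRIB1 were -0.19 in DU145 (adjusted p = 0.680) and -0.21 in PC3 (adjusted p = 0.542). In DU145, where 0.712% of all genes rose and 2.01% fell, 1 of 13 rose, TRIB1 itself, which the virus carries, and 0 fell. By limma 5 had an unadjusted p below 0.05, against 17.7% of all genes. In PC3, where 7.67% of all genes rose and 9.33% fell, 2 of 13 rose and 0 fell. The 2 were TRIB1 and DDB1, a scaffold of the ligase (log2 change 0.32). An unadjusted p below 0.05 was found for 7, against 30.6% of all genes. The count of falls in PC3 was 1 without any 1 of the DU145 TRIB1 libraries and reached 2 over all alternatives. The 2 rises in PC3 became 1 without the second PC3 control or any 1 of the PC3 TRIB1 libraries, and the 1 rise in DU145 became 2 without any 1 of the PC3 controls. The other Tribbles genes were also higher in the PC3 controls, TRIB2 by a log2 of 3.83 and TRIB3 by 2.00.

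Of 14 receptors, kinases and factors that act upstream of C/EBP genes, 0 rose and 3 fell in DU145, where 2.01% of all genes fell. These were NFKB1, an NF-kB subunit (log2 change -0.64, adjusted p = 0.0256), JAK1, the kinase of cytokine receptors (-0.53, adjusted p = 0.0317), and OSMR, the oncostatin M receptor (-0.77, adjusted p = 0.0356). OSMR was at 156 and 160.5 TPM in the DU145 controls and at 87.5 and 97.7 TPM with TRIB1. In PC3, where 7.67% of all genes rose and 9.33% fell, 3 of 14 rose (JAK1 by 0.48, NFKB1 by 0.40 and IL1R1 by 0.70) and 2 fell (RPS6KA1 by 0.62 and NFKBIZ by 1.02). JAK1 and NFKB1 thus had opposite changes, with differences between the lines of -1.01 (adjusted p = 0.00800) and -1.04 (adjusted p = 0.00907). The 3 falls in DU145 became 0 to 2 when 1 library was left out, 0 with the first DU145 control, the second TRIB1 library of DU145 or any of the PC3 TRIB1 libraries omitted. In PC3 the 3 rises became 1 with any control library of DU145 or PC3 left out and 0 with a PC3 TRIB1 library left out, and the 2 falls became 1 with a DU145 control or a PC3 TRIB1 library left out. In the PC3 controls 10 of the 14 were lower than in the DU145 controls, where 28.4% of all genes were. STAT3 differed most (log2 difference -6.97, limma adjusted p = 3.40e-06). It stayed below 1 TPM in PC3 and entered the test through DU145 alone.

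Other leucine zipper proteins pair with C/EBPs or compete for their sites. Of 15 such genes 14 were tested, and 0 passed in DU145 by limma, against 2.72% of all genes. An unadjusted p below 0.05 was found for 6, against 17.7% of all genes. In PC3, 4 rose and 3 fell, where 7.67% of all genes rose and 9.33% fell. ATF3, a stress factor, was at 25.2 and 26.3 TPM in the PC3 controls and at 97.8 and 92.2 TPM with TRIB1 (log2 change 1.84, adjusted p = 0.000761). DDIT3, or CHOP, which binds C/EBPs and blocks their DNA binding, had 35.1 and 36.6 TPM in the PC3 controls against 86.2 and 78.4 TPM with TRIB1 (log2 change 1.18, adjusted p = 0.00477). In DU145 it was at 23.6 and 28.7 TPM against 30.1 and 24.7 TPM (log2 change 0.06, adjusted p = 0.872), and the change differed between the lines by -1.11 (adjusted p = 0.0233). CEBPB transcripts per DDIT3 transcript were 9.33 and 6.29 in the DU145 controls, 3.23 and 2.96 with TRIB1, 2.57 and 3.57 in the PC3 controls, and 1.57 and 1.76 with TRIB1. The ratio was thus below both controls in both TRIB1 libraries of each line, but through different genes. In DU145 CEBPB was lower and DDIT3 near its control level, whereas in PC3 DDIT3 was higher and CEBPB was not lower. This ratio was chosen after its values were seen, and no test was run on it.

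The other changes among these relatives in PC3 went both ways. ATF5 rose by 0.42 and JUNB by 0.51, while JUN fell by 0.91, ATF2 by 0.42 and HLF, a factor of the related PAR subfamily, by 1.64. HLF had a mean of 4.115 TPM in the PC3 controls and means below 1 TPM in the other groups. It entered the test through the PC3 controls alone, so the filter favoured its fall, 1 of the 3 counted. The 4 rises became 2 with any 1 of the PC3 TRIB1 libraries left out. ATF4, the partner of CEBPG in the amino acid response, was at 252 to 334 TPM in DU145 and at 163.5 to 215 TPM in PC3, with log2 changes of 0.26 (adjusted p = 0.200) and 0.31 (adjusted p = 0.0641).

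Inflammatory and acute phase genes that C/EBPs are known to drive were listed as 26 genes, of which 20 were tested. This list was drawn up with earlier results of these libraries known, so its direction is not independent evidence. In DU145, 13 of 20 fell and 0 rose, where 2.01% of all genes fell and 0.712% rose, with a median log2 change of -1.77 against -0.04 for all genes. LCN2, an antimicrobial protein whose promoter letters are given above, was at 69.3 and 62.8 TPM in the DU145 controls and at 4.10 and 3.51 TPM with TRIB1 (log2 change -3.80, adjusted p = 0.000218). IL6, the main inducer of the acute phase, was at 6.35 and 5.39 TPM against 0.582 and 0.473 TPM (log2 change -2.17, adjusted p = 0.00282). Among the others, CXCL1 fell by 2.79 and CXCL2 by 2.60, both neutrophil attractants, and S100A9, a subunit of calprotectin, fell by 1.85. In all 3, as in LCN2 and IL6, no TRIB1 library reached a control, which also held, in this direction, for 29.7% of all genes tested. CXCL1, CXCL2 and S100A9 were named for their small p-values, so this gap is not separate evidence.

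In PC3, 10 of the 20 rose and 5 fell, where 7.67% of all genes rose and 9.33% fell, with a median log2 change of 0.54 against -0.01 for all genes. IL6 was at 62.4 and 73.8 TPM in the PC3 controls and at 419 and 403 TPM with TRIB1 (log2 change 2.58). LCN2 was at 698 and 665 TPM against 2099 and 2043 TPM (log2 change 1.60, adjusted p = 0.000950). CXCL8, the main human neutrophil attractant, was at 416 and 363 TPM against 1861 and 1778 TPM (log2 change 2.22, adjusted p = 0.00250), whereas in DU145 it was at 23.0 and 18.9 TPM against 7.13 and 4.58 TPM (log2 change -1.70, adjusted p = 0.0169). CCL20, an attractant of lymphocytes and dendritic cells, rose by 2.29 and CXCL2 by 1.27. The 5 that fell included CSF3 (by 1.66), the granulocyte growth factor, S100A8 (by 1.67), S100A9 (by 0.65) and PTX3 (by 0.88), a secreted pattern recognition protein. Tested directly, the TRIB1 change was lower in DU145 than in PC3 for 13 of 20 and higher for 1, CSF3, where 5.36% and 4.01% of all genes were so. CSF3 was at 0.0460 to 0.181 TPM in DU145 and entered the test through PC3 alone, so its difference restates its fall in PC3. IL1RN, counted in the 13, was at 0.116 to 0.442 TPM in DU145, and its difference likewise restates its rise in PC3. The means of IL1B, PTGS2, PTX3 and TNFAIP6 were also below 1 TPM in both DU145 groups, and none of these passed there. When 1 library was left out, the 13 falls in DU145 stood at 10 to 13 and the 10 rises in PC3 at 7 to 10. With the DU145 libraries alone 6 falls were left. The 5 falls in PC3 became 3 without the first PC3 TRIB1 library. CXCL1 and CXCL2 are close paralogs, as are SAA1 and SAA2, and reads may have been shared within each pair.

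**Figure D5:**
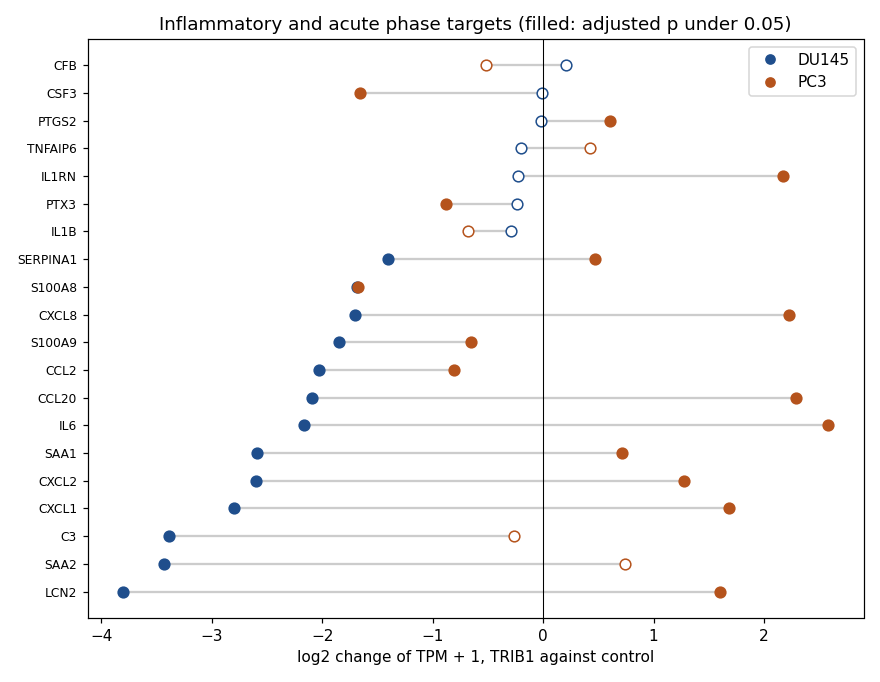
Log2 change of TPM + 1 with TRIB1 against control for the 20 inflammatory and acute phase targets tested, in DU145 (blue) and PC3 (orange), with filled points at an adjusted p below 0.05. The DU145 points reach from LCN2 at -3.80 up to CFB, and 13 are filled, all below 0. The PC3 points have 10 filled above 0 and 5 filled below.

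Among the 19 of these targets with a RefSeq promoter, 7 held TTGCNNAA in the 250 bases (CXCL2, FGB, IL1B, IL6, LCN2, PTGS2 and PTX3), and 0 held TGATGNAA. Over all starts the shares were 9.05% and 3.14%. Those shares are per start, whereas a gene counted here if any of its starts matched. CXCL2, IL6 and LCN2 fell in DU145 and rose in PC3, whereas IL1B, PTGS2 and PTX3 did not pass in DU145. CXCL8 and CCL20, with no TTGCNNAA in their 250 bases, also fell in DU145 and rose in PC3. So did CXCL1, SAA1 and SERPINA1, which are not among the 7, so the match did not set the genes with opposite changes apart. FGB was not tested. Markers of leukocytes, which also make many of these proteins, were at a summed 29.8 and 34.3 TPM in the DU145 controls, 8.76 and 11.1 TPM in the DU145 TRIB1 libraries, 19.5 and 22.8 TPM in the PC3 controls, and 32.2 and 35.1 TPM in the PC3 TRIB1 libraries. Of these 6 markers 3 were tested and 1 passed in each line, CD68, a lysosomal protein also made outside leukocytes, which fell by 1.88 in DU145 (adjusted p = 0.00441) and rose by 0.69 in PC3. Over the 8 libraries PTPRC was at 0.151 to 0.467 TPM, CD3E at 0.119 to 0.300 TPM, CD14 at 0.337 to 1.18 TPM and ITGAM at 0.398 to 2.46 TPM. The part of such cells in the changes of the targets was not tested.

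Targets of the amino acid response, the setting in which CEBPG and ATF4 act as a pair, were listed as 17 genes, all tested. In DU145, 6 of 17 rose, 0 fell and 11 did not pass, where 0.712% of all genes rose, and the median log2 change was 0.40. The transporter SLC7A5 rose by 0.92 from 120.1 and 126 TPM to 241 and 226 TPM, and PSAT1 (0.66), PHGDH (0.61) and MTHFD2 (0.59), enzymes of serine and folate metabolism, rose with it. In PC3, where 7.67% of all genes rose and 9.33% fell, 5 of 17 rose, 2 fell and 10 did not pass. The median log2 change was 0.28, against -0.01 for all genes. PSAT1 (0.60) and MTHFD2 (0.60) rose here too, as did SLC3A2 (0.74), the partner chain of SLC7A5, and STC2 (0.70), while DDIT4 fell by 0.86 and ALDH18A1 by 0.31. The count of 6 in DU145 ran from 0 to 9 over the alternatives, and was 0 with any PC3 TRIB1 library or the first DU145 control left out, and 1 with the second DU145 control or the first TRIB1 library of DU145 left out. The 2 falls in PC3 became 1 without any 1 of the DU145 controls, of the PC3 TRIB1 libraries or the second PC3 control. In PC3 the 5 rises were 2 without either PC3 TRIB1 library and 3 without either DU145 control. TGATGNAA was found in 2 of the 13 genes of this list with a RefSeq promoter, ASNS and CHAC1. Over all starts the share was 3.14%, counted per start and not per gene.

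Targets that CEBPA and CEBPE drive in other tissues were at mixed levels, and 13 of 28 reached the level needed for a test. Of 14 granulocyte and myeloid genes 7 were tested, and by limma 0 passed in either line (0 at an unadjusted p below 0.05 in each). Of all genes 2.72% passed in DU145 and 17% in PC3, with 17.7% and 30.6% at an unadjusted p below 0.05. Over the 8 libraries CSF2RA, a receptor chain for GM-CSF, reached from 2.27 to 24.2 TPM and MPO from 0.0206 to 0.278 TPM. The granule proteins AZU1 and PRTN3 were at 23.6 to 27.3 TPM and 6.56 to 8.73 TPM in DU145 and at most at 0.245 and 0.371 TPM in PC3. CTSG, a granule protease, was listed at 0 in all 8. In the PC3 controls 4 of the 7 were lower than in the DU145 controls, where 28.4% of all genes were. Among the 4, AZU1 and PRTN3 entered the test through DU145 alone, so a lower level in PC3 was fixed by the filter. ELANE, also among them, reached at most 1.62 TPM in any library. The count is therefore not read against that share. Of 14 fat and liver genes 6 were tested, and 0 passed in DU145 by limma, against 2.72% of all genes. An unadjusted p below 0.05 was found for 2, against 17.7%. In PC3 SCD, a lipid desaturase, rose by 0.44, and FABP4, a fatty acid carrier listed at 0 in all DU145 libraries, fell by 1.60 from 17.8 and 15.4 TPM to 5.42 and 4.19 TPM. Without either PC3 TRIB1 library, or with the PC3 libraries alone, the rise of SCD was lost. Without any 1 of the DU145 libraries 2 of the 6 fell in place of 1.

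Genes that carry the family name without belonging to it were kept apart. CEBPZ, a CCAAT-binding protein unrelated in structure, was at 28.6 and 28.8 TPM in the DU145 controls, 39.3 and 31.5 TPM with TRIB1, 26.6 and 24.1 TPM in the PC3 controls and 38.9 and 31.5 TPM with TRIB1. Its log2 changes were 0.29 (adjusted p = 0.380) and 0.45 (adjusted p = 0.0889). CEBPA-DT is a long noncoding RNA listed on the other strand, 293 bases past the higher coordinate of CEBPA, the start side of that minus-strand gene. It was at 0.201 to 2.93 TPM. The strand setting of the counting is not given in the sources used here, so reads of a member and of an antisense RNA over it, such as CEBPB-AS1 over CEBPB, cannot be told apart.

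The genes whose pattern was most like each member were found among 13434 genes of at least 5 TPM on average, by Pearson r of log2(TPM + 1) over the 8 libraries. These are descriptions, and the libraries share line, treatment and GC effects. CEBPB was followed most closely by RARG and RUNX1 (both r = 0.956) and NTN4 (0.951). RUNX1 had 81.3 and 77.2 TPM in the DU145 controls, 38.0 and 37.9 TPM with TRIB1, 36.5 and 47.1 TPM in the PC3 controls and 56.5 and 56.4 TPM with TRIB1, the same order of group means as CEBPB. CEBPD was closest to BMP1 (0.997) and SHKBP1 (0.994), CEBPA to KLF2 (0.998), EPDR1 (0.994) and SCRN2 (0.992), and CEBPG to WWOX and CALM2 (both 0.996) and CCT4 (0.993). With the mean of each line subtracted, the closest were STAT6 (0.982), TNFAIP2 (0.979) and HES4 (0.978) for CEBPB, SPATA20 (0.996), BMP1 (0.991) and GPR108 (0.989) for CEBPD, MAP3K6 (0.994), CENPB (0.992) and EPDR1 (0.991) for CEBPA, and POLR3A (0.993), METTL7B (0.992) and FABP5 (0.991) for CEBPG. HES4, like CEBPB, was higher in the second PC3 control, at 89.6 TPM against 62.1 TPM in the first.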

How the data were processed

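The authors deposited 1 table of TPM values for 8 libraries, and every column sums to 1000000. TopHat2 2.0.14, HTSeq, edgeR, DESeq and hg38 appear in the submitters' processing notes. The tool behind the TPM, its gene lengths and any strand setting were not given in the sources used here. Groups come from the titles.

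A test was made for 25982 genes, those whose mean reached 1 TPM in some group, by limma 3.58.1 (under R 4.3.3, trend option on) from log2(TPM + 1), a scale that understates changes of low genes. All 8 libraries and 4 group means entered 1 fit (4 residual degrees of freedom), with Benjamini-Hochberg adjustment over all genes tested. "Rose" and "fell" mean an adjusted p below 0.05. The procedure was tested on simulated data. Listed gene intervals are printed as deposited: of 52338 identifiers shared with GENCODE 29, 365 have the same start, so their build is not stated.

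The rule for named genes takes the 5 members, TRIB1, COP1, DDIT3, ATF4, CEBPZ, STAT3, IL6, CXCL8 and LCN2, up to 4 passing genes of smallest p per list, line and direction, and the 3 most similar genes per member and measure. Some genes picked by these rules are not reported here. TRIB2, TRIB3, CEBPA-DT, CSF2RA, AZU1, PRTN3, CTSG, MPO and the ratios between genes were chosen after their values were seen. Members and lists were chosen with earlier results of these data known. GC content was taken from the longest GENCODE 29 transcript, known for 90.6% of the genes tested, and its correction was chosen after seeing the data. CEBPB-AS1, which overlaps CEBPB, and PECAM1 were not analysed here.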

Additional observations from a re-analysis of the deposited data

Results flagged for a closer look

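For 22 of the 44 named genes checked, the log2 change with TRIB1 differed between the lines, by limma's test of the difference itself (DU145 minus PC3, adjusted over all genes tested), 16 lower and 6 higher in DU145. Most of these genes were named because they had passed in 1 line, so this count is not read against a share of all genes. CEBPB was the only member among them, at -1.56 (adjusted p = 0.0343).

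Among inflammatory targets the differences were -5.41 for LCN2, -4.75 for IL6, -4.48 for CXCL1, -4.38 for CCL20, -3.92 for CXCL8, -3.87 for CXCL2, -1.20 for S100A9 and 1.65 for CSF3, a gene near 0 in DU145. Among leucine zipper relatives they were -2.11 for ATF3, -1.11 for DDIT3, -1.08 for JUNB, -0.49 for ATF5 and 1.60 for HLF, likewise near 0 in DU145. Upstream genes gave -1.05 for IL1R1, -1.04 for NFKB1 and -1.01 for JAK1. Amino acid response genes gave 0.97 for SLC7A5, 0.65 for PHGDH, 0.50 for ALDH18A1 and -0.76 for STC2. FABP4 gave 1.60. It is listed at 0 in DU145, where CSF3 and HLF also stayed below 0.182 TPM, and these 3 genes were tested through their level in PC3 alone, so their differences restate the changes in PC3 and show no response of DU145. Adjusted p values ran from 0.000211 for LCN2 to 0.0494 for STC2. The cause of the differences was not tested.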

How the results depend on the processing

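Libraries of unknown depth and 2 per group limit what can be shown. The count of members past the threshold in DU145, 0 as reported, was 1 with a pseudocount of 0.1, with a filter of 5 TPM, with protein-coding genes alone and with GC correction and the replicate block together, and 2 with GC correction. In PC3, also 0 as reported, it was 1 with median-of-ratios scaling (CEBPG, 0.31, adjusted p = 0.0497), 2 with protein-coding genes alone (CEBPA and CEBPD), 1 with GC correction and 1 with GC correction and the replicate block (CEBPB both times). The difference between the lines, 1 member as reported, was 0 without a filter (adjusted p = 0.0561), with the replicate block (0.0692) and without the trend (0.0550), and 0 to 1 when 1 library was left out. The 4 members lower in the PC3 controls became 2 to 4 when 1 library was left out; CEBPB was lost without either DU145 control, the first PC3 control or either PC3 TRIB1 library.

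Replicate numbers did not pair the libraries: deviations of same-numbered libraries correlated at -0.0415 to 0.0137. With the replicate block the 3 upstream genes and 6 amino acid genes past the threshold in DU145 became 0 each.

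Signs turned for differences near 0 alone: CEBPA at -0.0305 and CEBPG at 0.0551 with GC correction, with and without the block, and CEBPD between -0.27 and 0.18 over libraries left out (0.127 with the first DU145 control omitted, 0.132 with the second TRIB1 library of DU145 omitted, 0.180 with the first PC3 control omitted). The family total of PC3 TRIB1, 161 TPM, was 172 TPM with median-of-ratios scaling and 145.5 TPM without CEBPG.

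Over all genes, the number past the threshold ran from 52 (the DU145 libraries alone) to 1363 (protein-coding genes alone) in DU145, from 2042 (without the second PC3 TRIB1 library) to 5284 in PC3, and from 1275 (without the first DU145 control) to 3769 for the difference, against 707, 4415 and 2434 as reported. The cause of these shifts was not tested.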
